A study of Drosophila melanogaster with 33 samples.

Results

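The genes described here were high in tumours of l(3)mbt mutant fly brains after the first round of culture in adult hosts and low after the fifth and the tenth. A gene was taken when its mean log2 level at round 1 (T1) was over 7 and exceeded both the round-5 (T5) and the round-10 (T10) mean by at least 2, which is a 4-fold difference. Each gene was represented by its probe set with the highest mean over all arrays. The rule found 112 of 11982 genes (0.935%). Of these, 68 were near or below background in wild-type (WT) brains, with a WT mean under 4, and are called absent from WT. The other 44 had a WT mean of 4 or more and are called brain genes. The genes were thus chosen by their measured tumour levels and divided by their WT level, so differences between rounds and between tumours and WT are given as a description, with no test.

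Expression had been measured in Drosophila larval brains and cultured tumours on 33 Affymetrix arrays, 1 per sample. Homozygotes of the temperature-sensitive allele l(3)mbt[ts1] were assayed at 29 °C on 6 arrays, replicates 1 to 3 at the site EMBL and 4 to 6 at the site IRB, and at 17 °C on 3 arrays at EMBL. Homozygotes of the allele l(3)mbt[E2] were assayed at 29 °C and at 17 °C, and ts1/E2 transheterozygotes at 29 °C, on 3 arrays each at IRB. The tumours came from ts1 brains and were kept by serial transplantation into adult flies, with 3 arrays each for T1, T5 and T10, all at IRB. WT (w1118) had 3 arrays at each site and no temperature in its labels. The labels do not say which host tissue was removed from a tumour before RNA was made, nor whether the 3 samples of a round were separate tumour lines. In a bulk sample, fewer cells of a type and less RNA per cell cannot be told apart.

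The product of l(3)mbt binds chromatin, and brains of larvae that lose it overgrow and express genes of the germ line. A piece of such a brain placed in the abdomen of an adult fly can grow into a tumour, and pieces of that tumour can be passed to new hosts for round after round. The graft grows beside the gut, the renal (Malpighian) tubules, the fat body, the gonads and the blood cells of the host. A first-round graft can still hold the cell types of the larval brain, optic lobe and glia among them.

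The level of l(3)mbt was 8.78 ± 0.30 (SD, n = 3) in T1, 8.97 ± 0.46 in T5 and 9.09 ± 0.19 in T10, and 7.52 ± 0.35 in WT (SD, n = 6). Its transcript thus stayed detected in every group, and limma called no difference of it in the 9 comparisons of larval brains. The 5 arrays E2 29 °C replicate 1, E2 17 °C replicate 2, ts1 17 °C replicate 2 and ts1 29 °C replicates 3 and 6 had been found to stand apart in earlier work on these data, and on the first the median correlation with the other arrays of its group was only 0.741. None of them is a tumour array. The same median correlation was 0.931 to 0.935 for the T1 arrays and 0.963 to 0.980 for those of T5 and T10. The T1 arrays were thus the least alike of the tumour rounds. Of 18 neuroblast genes, which mark the dividing stem cells of the brain, all 18 had a mean over 4 in T1, in T5 and in T10, and 0 were among the 112 fading genes. The neuroblast list averaged 9.78 to 9.93 on the T1 arrays, 10.02 to 10.22 on the T5 arrays and 10.25 to 10.38 on the T10 arrays.

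Over all genes, 3.4% had a T1 mean at least 2 above the T5 mean and 3.61% at least 2 above the T10 mean. The median difference over the genes that passed the low-value filter was -0.09 for T1 minus T5 and -0.08 for T1 minus T10, so the arrays of the rounds were not shifted against each other by much. All 3 T1 arrays lay above all 6 later tumour arrays for 89 of the 112 genes. Among all 5515 genes with a T1 mean over 7 this held for 5.44%. The rule itself asks for such a difference, so nothing is read from the higher share among its genes. The smaller of T1 minus T5 and T1 minus T10 is called the smaller drop. Just inside the limit of 2 lay CG5646, with a smaller drop of 2.01, tHMG1 with 2.03 and CG15236 with 2.05. Just outside it lay the metallothionein gene MtnA with 1.95, the germline Argonaute gene piwi with 1.96 and the glutamine synthetase gene Gs2 with 1.98.

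**Figure D1:**
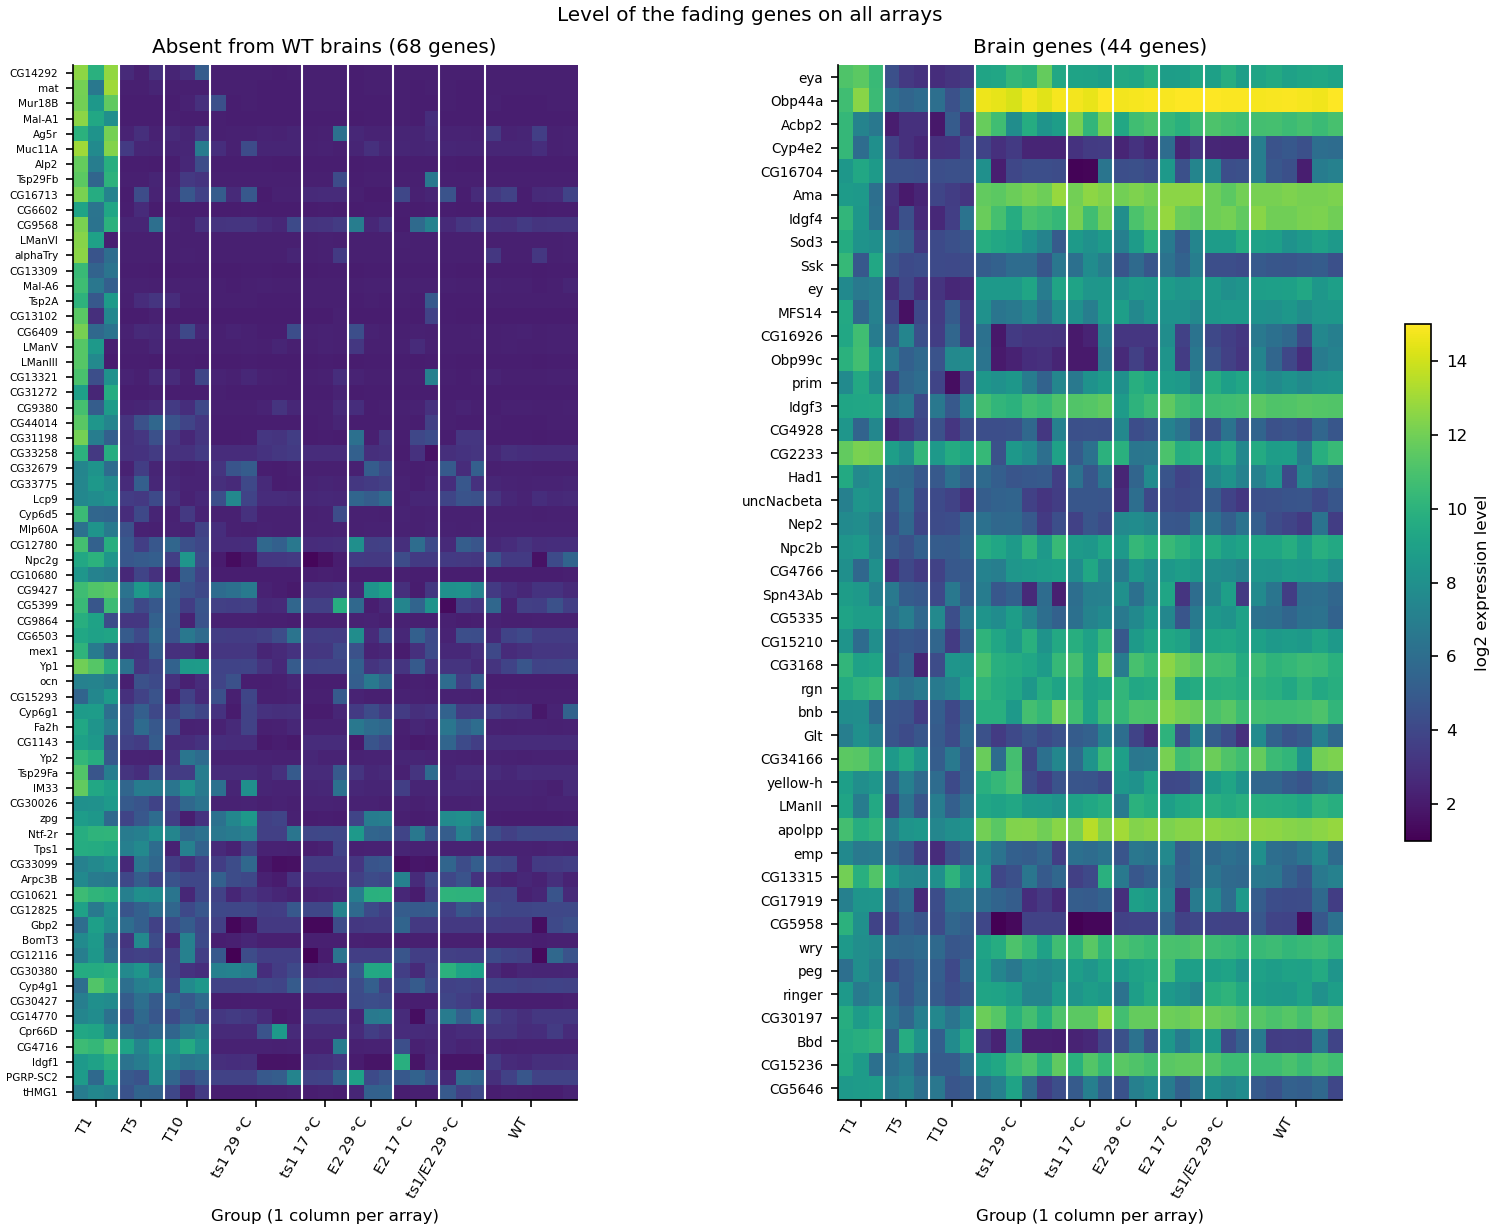
Log2 expression level of the 112 fading genes, 1 row per gene, on all 33 arrays, with arrays ordered by group; the left panel holds the 68 genes absent from WT brains and the right panel the 44 brain genes, sorted by their smaller drop. Most rows on the left are bright on the T1 arrays alone, while many rows on the right are also bright in larval brains.

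The 68 genes absent from WT had a median T1 mean of 7.91, with a range of 7.01 to 11.74. Their median was 3.67 in T5, 3.34 in T10 and 2.35 in WT. For 35 of the 68 the means of both later rounds were under 4. The later level was mostly reached by round 5, since the T10 mean lay within 1 of the T5 mean for 51 genes, at least 1 below it for 12 and at least 1 above it for 5. The T1 arrays were not alike. The median over the 68 genes was 9.97 on T1 replicate 1, 8.02 on replicate 2 and 8.04 on replicate 3, and 39 of the genes had their highest T1 value on replicate 1. The T1 values spanned over 4 log2 units for 31 genes and under 2 for 20.

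Digestive enzymes and other gut transcripts are described first among the genes absent from WT. Mal-A1, which encodes a maltase of the midgut, had 12.55, 9.38 and 7.99 on the T1 arrays, 2.15 to 2.17 on the T5 arrays, 2.17 to 2.25 on the T10 arrays and a WT mean of 2.18. The T1 arrays were all far above the later ones, and replicate 1 was the highest. A second maltase gene, Mal-A6, had 10.66, 6.54 and 5.25 in T1 and no value above 2.28 in T5 or T10. The trypsin gene alphaTry had 12.59, 4.66 and 6.0 in T1, again with replicate 1 far above the other two, and 2.23 to 2.28 in the later rounds. mex1, a marker of the midgut epithelium, had 10.09, 6.77 and 4.81 in T1 and overlapped T5, where replicate 3 reached 5.12. Npc2g, of a family of sterol-binding proteins, was the even member of the group at 9.40, 10.02 and 8.37 in T1, but T10 replicate 2 held 8.34.

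The gut list was highest on 1 array, T1 replicate 1. Of its 38 measured genes, 5 met the rule and 13 had both drops of at least 2, and the 33 that did not meet the rule all had a T1 mean of 7 or less. On T1 replicate 1, 26 of the 38 were over 4 and the list averaged 6.79. On T1 replicates 2 and 3, 8 genes each were over 4, and the list averaged 3.28 and 3.05. In T5 the count was 2, 2 and 8 genes and in T10 it was 1, 2 and 3, with list means of 2.38 to 3.37 and 2.33 to 2.46. WT arrays held 0 to 8 such genes, with list means of 2.28 to 3.07. Arrays of ts1 brains at 17 °C held 1 to 11, with list means of 2.36 to 3.83, so 1 of them exceeded T1 replicates 2 and 3. No array of the other larval mutant groups held more than 5. T5 replicate 3 was the later array with the most gut signal, and its genes were partly other ones: the chymotrypsin-like protease gene Jon99Fi, named after its values were seen, had 11.92 there and 11.18 on T1 replicate 1, against 2.35 to 2.37 on the other tumour arrays. The part of host gut in these differences was not tested.

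Some other genes of the set encode proteins of epithelial surfaces and junctions, picked here by known role since none of the marker lists covers them. The mucin genes Mur18B and Muc11A had 12.02, 8.47 and 11.60, and 13.01, 7.70 and 12.38, on the T1 arrays. Mur18B stayed at 2.93 or lower in T5 and T10, whereas Muc11A reached 6.81 on T10 replicate 3. Tsp2A and Ssk encode partner proteins of the smooth septate junction, the seal of midgut and renal tubule epithelia. Tsp2A had 10.07, 4.86 and 8.63 in T1 and 2.21 to 3.18 in the later rounds. Ssk, a brain gene by the rule with a WT mean of 4.80 ± 0.24 (SD, n = 6), had 10.38, 4.84 and 9.39 in T1 and 4.09 to 4.70 later. In both genes replicate 2 was the low T1 array, and for Ssk it lay at the WT level. The tetraspanin genes Tsp29Fa and Tsp29Fb and the alkaline phosphatase gene Alp2 had the same order of T1 arrays, with Alp2 at 11.69, 6.94 and 9.80.

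A different order was seen for the alpha-mannosidase genes LManIII, LManV and LManVI, of a family named for the lysosomal enzyme. LManVI had 12.46 and 9.0 on T1 replicates 1 and 2 and 2.24 on replicate 3, which equals its level in T5 and T10. LManV had 11.29, 8.55 and 2.25 and LManIII had 11.30, 7.60 and 2.13. These 3 genes were thus absent from 1 of the 3 first-round tumours, which mucin genes reached at over 11. They also failed the low-value filter of the tests, as did CG13102 and CG31272, because fewer than 3 of the 33 arrays exceeded 4, and they were not tested below. LManII, a brain gene with a WT mean of 9.72 ± 0.27 (SD, n = 6), had 9.17, 6.89 and 9.44 in T1 and overlapped T10, with 6.94 on its replicate 1.

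The 2 genes with the largest smaller drop were CG14292, of unnamed function, and mat. CG14292 had 12.62, 9.87 and 12.72 in T1, 2.24 to 2.93 in T5, 2.43 to 5.05 in T10 and a WT mean of 2.24. Its smaller drop was 8.30. mat had 12.06, 6.60 and 12.98 in T1 and no value above 2.45 later, a smaller drop of 8.25. Both were low on T1 replicate 2, the array that was also low for the mucin and junction genes. Ag5r, which encodes a secreted protein of the antigen-5 family, had 9.93, 8.21 and 12.07 in T1 and 2.35 to 3.45 in T5 and T10. Of the 68 genes, 32 have only a CG number for a name, and 15 of the 44 brain genes do.

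**Figure D2:**
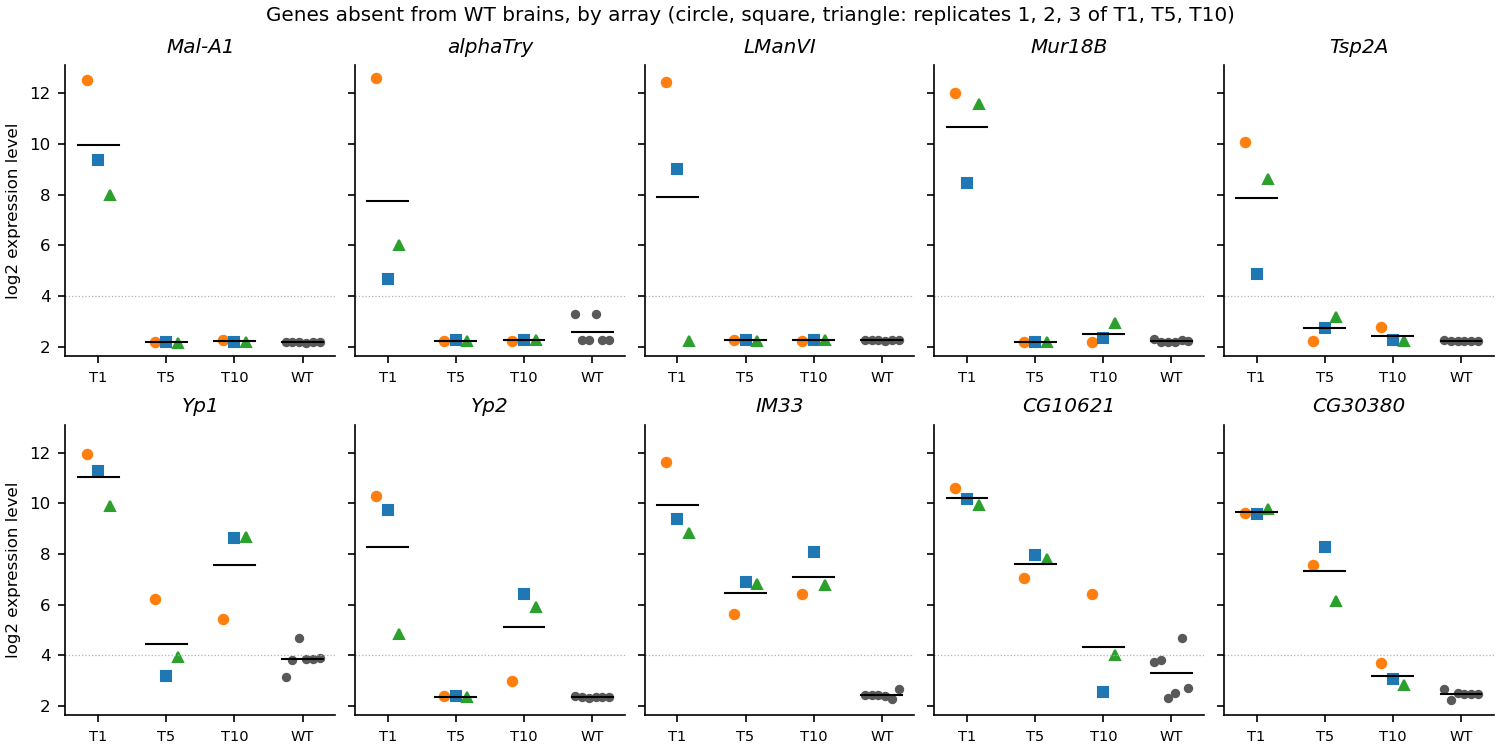
Log2 expression level by array for 10 genes absent from WT brains in T1, T5, T10 and WT, with the group mean as a bar and log2 4 as a dotted line; circles, squares and triangles mark replicates 1, 2 and 3 of the tumour groups. alphaTry and LManVI are far apart among the T1 arrays, with LManVI at 2.24 on replicate 3, whereas CG10621 and CG30380 are even in T1 and lower at each later round.

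Some fat body and yolk genes were lower in the later rounds but remained detected on part of the arrays. The yolk protein genes Yp1 and Yp2 are expressed by the fat body and the ovary of adult females. Yp1 had 11.94, 11.29 and 9.90 in T1, 3.19 to 6.22 in T5, 5.43 to 8.69 in T10 and a WT mean of 3.87 ± 0.49 (SD, n = 6). Yp2 had 10.29, 9.72 and 4.84 in T1, 2.35 to 2.37 in T5 and 2.99 to 6.41 in T10. The T10 mean was thus above the T5 mean, by 3.14 for Yp1 and by 2.74 for Yp2, and T10 replicates 2 and 3 were the higher arrays in both. These were the 2 largest such differences among the 68. Of 27 fat body and yolk genes measured, 6 met the rule and 9 had both drops of at least 2. Of the 6, only Yp1 and Yp2 were absent from WT, while Had1, apolpp, Obp99c and Obp44a were brain genes. The list averaged 8.16, 7.20 and 6.46 on the T1 arrays, 5.27 to 5.39 in T5, 5.31 to 5.87 in T10 and 6.48 to 7.01 in WT.

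The renal, muscle, blood cell and immune lists had few or no genes that met the rule. Of 16 renal tubule genes 0 met it, but only 1 had a T1 mean over 7, so most could not. Still, 6 of the 16 had both drops of at least 2. Their median difference was 1.73 for T1 minus T5 and 1.70 for T1 minus T10. On the T1 arrays 9, 3 and 5 of them were over 4, with 1 to 4 in T5 and 1 to 3 in T10. WT brains also held 7 to 9. Of 23 muscle genes 1 met the rule: Mlp60A, which encodes a LIM protein of muscle, with 6.20, 8.23 and 6.77 in T1, 2.30 to 4.49 in T5 and 2.35 to 3.76 in T10. Of 20 blood cell genes 1 met it, the glutactin gene Glt, and the list averaged 6.01 to 7.06 in T1, 5.69 to 6.35 in T5 and 5.82 to 6.47 in T10. Of 18 immune genes 1 met it: PGRP-SC2, which encodes a peptidoglycan-cleaving amidase, with 8.69, 5.78 and 9.06 in T1 and 7.87 on T5 replicate 3. IM33 is an immune-induced gene on chromosome 2L, with no other measured protein-coding gene between it and CG16713. It had 11.63, 9.37 and 8.82 in T1 and remained at 5.64 to 8.07 later, against a WT mean of 2.44 ± 0.14 (SD, n = 6). The part of each of these tissues in the differences was not tested.

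Detoxification genes contributed 4 of 48 measured members, all of the cytochrome P450 family, which oxidises lipids, hormones and foreign compounds. Cyp6g1, known for insecticide resistance, had 8.67, 8.73 and 6.13 in T1 and 3.54 to 5.24 later. Cyp6d5 had 10.52 on T1 replicate 1 and 5.61 and 5.54 on the other two, against 2.31 to 4.05 later. Cyp4g1, which makes cuticular hydrocarbons in oenocytes, was the reverse: T1 replicate 1 was low at 5.99 and replicates 2 and 3 had 11.19 and 10.24, with 6.12 to 7.46 in T5 and 4.05 to 8.42 in T10. Its T1 arrays therefore overlapped both later rounds.

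**Figure D3:**
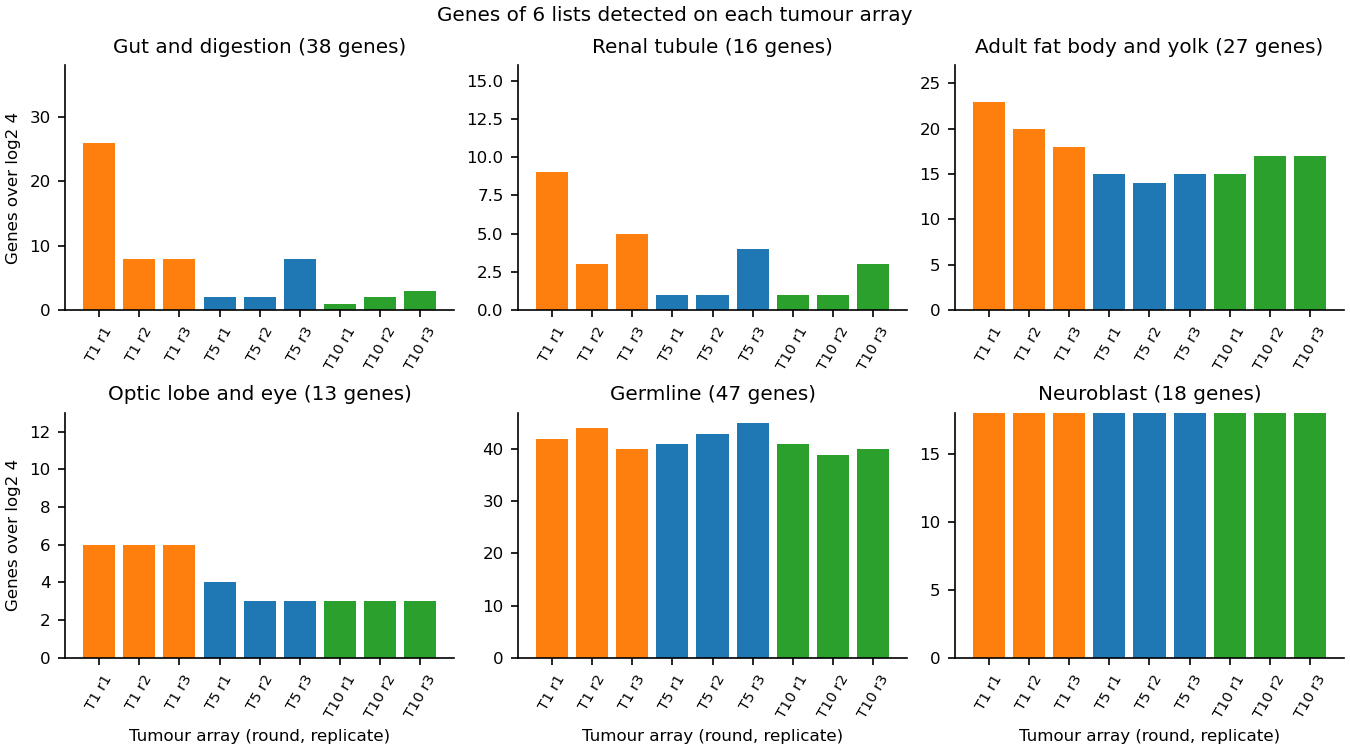
Number of genes with a log2 level over 4 on each tumour array, for 6 marker lists, with bars coloured by round and each axis running to the size of the list. Gut genes reach 26 of 38 on T1 replicate 1 and 8 on T5 replicate 3, optic lobe and eye genes number 6 on each T1 array and 3 or 4 later, and all 18 neuroblast genes are over 4 on every array.

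Another set of genes absent from WT was even among the first-round tumours and lower at each later round. CG30380 had 9.61, 9.60 and 9.77 in T1, 7.58, 8.29 and 6.13 in T5, 3.70, 3.07 and 2.81 in T10 and a WT mean of 2.47. The groups did not overlap, and the T10 mean was 4.14 below the T5 mean. CG10621 had 10.59, 10.17 and 9.93 in T1, 7.07 to 7.97 in T5 and 6.43, 2.54 and 3.99 in T10, against a WT mean of 3.28. CG9427 had 10.66, 11.21 and 11.44 in T1, 6.35 to 8.54 in T5 and 4.03 to 5.15 in T10, against a WT mean of 2.94. For each of these 3 genes every array of a later round lay below every array of the round before it.

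Lower means at each later round were also found for zpg, tHMG1, ocn and Fa2h. zpg, which encodes the innexin of germ cell gap junctions, had 8.72, 8.41 and 5.76 in T1, 3.85, 4.83 and 5.95 in T5 and 3.61, 2.17 and 3.08 in T10. T5 replicate 3 thus lay within the T1 range. tHMG1, a testis-expressed HMG-box gene, had 6.90 to 7.46 in T1, 4.52 to 5.50 in T5 and 2.33 to 3.99 in T10. ocn, also of the testis, had 6.72 to 7.26 in T1, 2.21 to 4.46 in T5 and 2.27 to 2.99 in T10. Fa2h, a fatty acid hydroxylase gene, had 6.99 to 9.32 in T1, 4.06 to 5.87 in T5 and 2.33 to 4.19 in T10. The germline and testis lists as a whole held few such genes. Of 47 germline genes zpg was the 1 that met the rule, 2 had both drops of at least 2, and 42, 44 and 39 had a mean over 4 in T1, T5 and T10, against 22 in WT. Of 28 testis genes ocn was the 1 that met the rule and the 1 with both drops of at least 2, and 11, 10 and 10 had a mean over 4 in T1, T5 and T10, against 6 in WT.

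Among the 44 brain genes the median T1 mean was 8.26, with a range of 7.04 to 11.95. Their median was 4.94 in T5, 5.01 in T10 and 8.55 in WT. Relative to WT, the T1 mean was at least 1 lower for 17 of them, within 1 for 7 and at least 1 higher for 20. The T1 arrays were more alike than for the genes absent from WT, spanning over 4 for 3 genes and under 2 for 28. In T5 and T10 both means were still over 4 for 33 of the 44, so the later signal of most of these genes was above background.

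The eye and optic lobe regulators eya and ey were both among the 44, and eya had the largest smaller drop of them. eya encodes a transcriptional coactivator with phosphatase activity and ey a Pax6 transcription factor, both of the retinal determination network and both used in the developing optic lobe. eya had 11.13, 11.45 and 10.51 in T1, 4.40, 3.34 and 3.06 in T5, and 2.83, 3.10 and 3.33 in T10, against 9.04 to 9.52 in WT. T1 thus lay above WT, and both later rounds lay near background, with drops of 7.44 and 7.95. ey had 7.63, 6.66 and 6.97 in T1, 2.87, 3.98 and 2.96 in T5, and 3.11, 2.58 and 2.68 in T10, against 8.40 to 9.39 in WT. The ey arrays of T1 lay below WT and above every later array.

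The other optic lobe and eye genes differed from one another between rounds. Of the 11 that did not meet the rule only 4 had a T1 mean over 4, so most had little room to be lower later. The whole list, eya and ey included, averaged 4.74 to 4.94 on the T1 arrays. It averaged 3.54 to 3.63 on the T5 arrays and 3.37 to 3.44 on the T10 arrays. Of 13 measured, 2 met the rule and 3 had both drops of at least 2. The third was so, the homeobox partner gene of eya, with a T1 mean of 4.32, a T5 mean of 1.23 and a T10 mean of 1.26, against 5.25 in WT. toy, the second Pax6 gene, had a mean of 10.40 in T1, 10.49 in T5 and 10.24 in T10, against 11.15 in WT. dac, a further gene of the network, averaged 7.36 in T1 with 9.41 on replicate 3, 6.46 in T5 and 6.19 in T10, against 11.58 in WT. Optix was near background already in T1, at 2.59, against 8.60 in WT. These retinal network genes therefore differed in the round by which they were low.

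Several brain genes encode secreted or lipid-binding proteins and are put together here by known role, with no list or count behind the grouping. Obp44a, an odorant-binding protein gene with very high signal in larval brains, had 10.70, 12.52 and 10.56 in T1, 5.55 to 6.04 in T5 and 4.49 to 6.11 in T10, against 14.71 to 15.04 in WT. Ama, which encodes a secreted immunoglobulin-domain protein of neural adhesion, had 8.69, 8.50 and 6.09 in T1, 2.04 to 2.96 in T5 and 3.18 to 3.94 in T10, against 12.11 to 12.28 in WT. Both were thus below WT in T1 and lower again later. apolpp, the precursor of the lipoprotein scaffold of the hemolymph, had 10.82, 9.70 and 10.15 in T1, 7.02 to 8.41 in T5 and 7.41 to 8.14 in T10, against 12.34 to 12.79 in WT. The acyl-CoA-binding protein gene Acbp2 had 10.34, 7.28 and 6.61 in T1 and 1.89 to 5.0 later, against a WT mean of 10.78 ± 0.15 (SD, n = 6).

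The chitinase-like growth factor genes Idgf3 and Idgf4 took the same course. Idgf3 had 9.25, 9.29 and 9.41 in T1, 4.16 to 6.61 in T5 and 4.93 to 7.12 in T10, against a WT mean of 11.26 ± 0.11 (SD, n = 6). Idgf4 had 10.22, 8.41 and 6.30 in T1, with T10 replicate 3 at 6.31, against a WT mean of 12.14 ± 0.22. Sod3, the extracellular superoxide dismutase gene, had 9.63, 8.21 and 7.98 in T1 and 3.25 to 5.50 later, and its T1 mean of 8.61 ± 0.89 (SD, n = 3) lay at its WT mean of 8.68 ± 0.34 (SD, n = 6). Of the 20 glial genes measured 0 met the rule, with 15 over 4 in T1, 12 in T5 and 11 in T10, against 20 in WT. Of 18 neuronal genes 0 met it, with 17, 14 and 14 over 4 in T1, T5 and T10, against 17 in WT.

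Other brain genes were higher in T1 than in WT. Obp99c, an odorant-binding protein gene that is also on the fat body list, had 9.92, 10.78 and 8.76 in T1, 5.29 to 6.60 in T5 and 4.59 to 7.74 in T10, against a WT mean of 5.63 ± 1.87 (SD, n = 6). CG2233 had 11.66 to 12.17 in T1, 7.95 to 10.25 in T5 and 8.51 to 9.61 in T10, against a WT mean of 9.05 ± 1.24. Had1, a hydroxyacid dehydrogenase gene, and the serpin gene Spn43Ab had T1 means of 8.37 ± 1.0 and 8.18 ± 0.87, against WT means of 6.46 ± 1.44 and 5.91 ± 1.36. For these 4 genes the WT arrays spread widely, with SDs over 1. Relative to the ts1 brains at 29 °C of the same site, the T1 mean was at least 1 higher for 23 of the 44 genes, within 1 for 8 and at least 1 lower for 13.

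**Figure D4:**
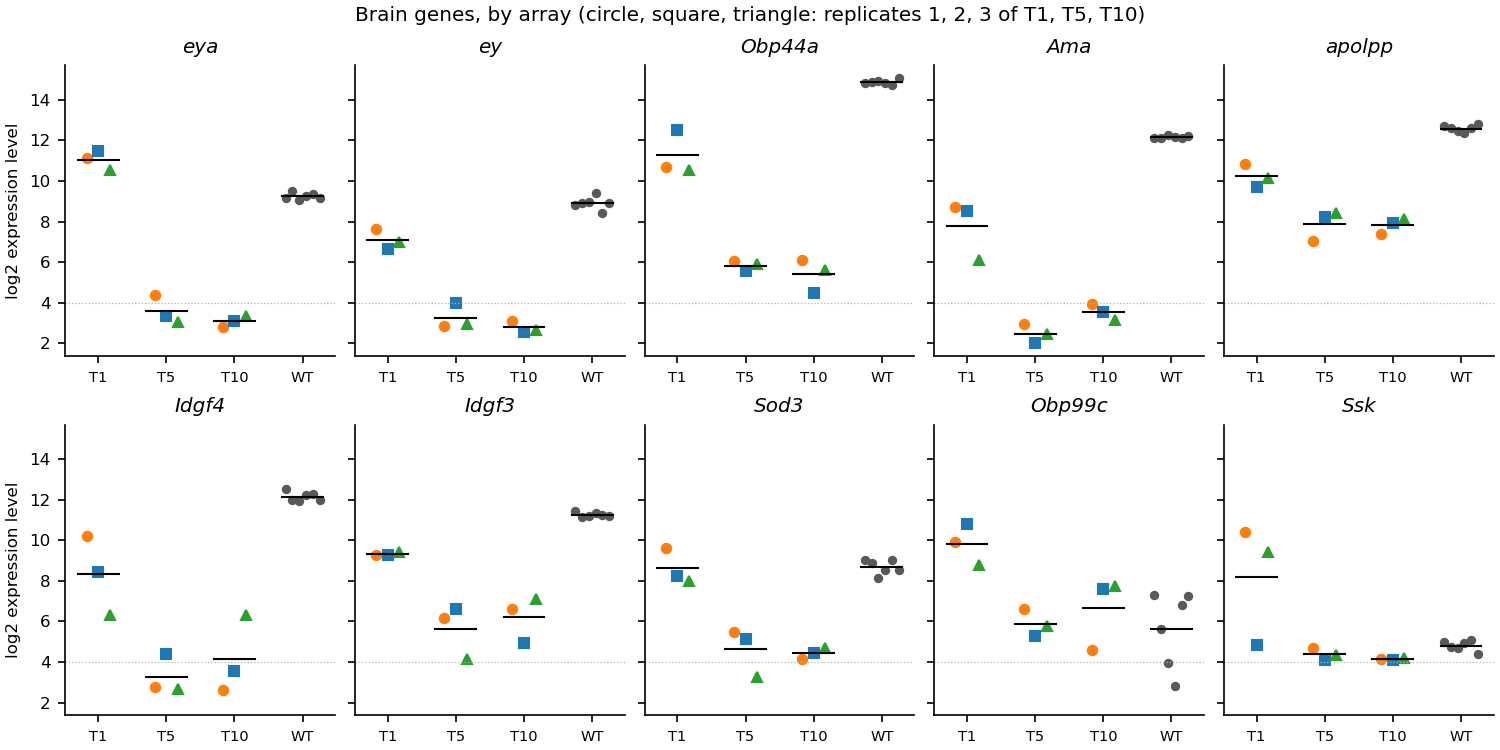
Log2 expression level by array for 10 brain genes in T1, T5, T10 and WT, with the group mean as a bar and log2 4 as a dotted line; symbols mark the tumour replicates as in the plot of genes absent from WT. eya lies above WT in T1 and near 3 in T10, Obp44a, Ama, apolpp, Idgf3 and Idgf4 lie below WT in T1 and lower later, and Ssk is high on 2 of its 3 T1 arrays.

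How far the set depends on single tumour arrays was counted. Of the 112 genes, 74 still met the rule without T1 replicate 1, 94 without replicate 2 and 100 without replicate 3. Among the 68 genes absent from WT, 45 remained without T1 replicate 1, and among the 44 brain genes 29 remained. The genes lost without that array included alphaTry, Mal-A6, mex1, Tsp2A, LManIII, LManV and LManVI among those absent from WT, and Acbp2, Cyp4e2 and ey among brain genes. Of the 38 genes lost, 29 still had both drops of at least 2 and failed only on the T1 mean, Tsp2A with a smaller drop of 4.03 and ey with 3.55 among them. Mal-A1, Mur18B, CG14292, mat, CG10621 and eya stayed. When each of the 9 tumour arrays was left out in turn, 31 of the 68 and 18 of the 44 met the rule every time. Genes outside the set can enter when an array is left out, and without T1 replicate 3 the rule found 68 brain genes in place of 44.

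The larval brains gave measurements of the same genes on arrays that the tumour rule did not use. Differences were tested with limma on all 33 arrays, each within 1 site, and a gene was called where its Benjamini-Hochberg adjusted p over 8264 genes was under 0.05 and its groups differed by 1 or more on the log2 scale. Of the 112 genes, 107 passed the filter and were tested, 63 of those absent from WT and all 44 brain genes. For 40 of the 68 genes absent from WT the highest mean of any larval mutant group was under 4, and over the 68 this highest mean had a median of 3.74, against a median WT mean of 2.35. Mal-A1 lay at 2.14 to 2.81 on the 24 mutant and WT larval arrays. Genes this low in larval brains, or not tested as the 3 mannosidase genes were, could give no call between larval groups.

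Temperature within an allele compares group means that used neither the tumours nor WT. The variance behind each p was fitted on all arrays, tumours and WT included, and the low-value filter also used them all. Of the 68 genes absent from WT, 31 had T1 values spanning over 4 log2 units. For those tested, this spread enters the standard error (SE) and can hide a difference between larval groups. Its effect on the calls was not tested. In E2 brains at 29 °C against 17 °C, 13 of the 107 tested genes (12.1%) were called higher and 0 lower, 11 of them absent from WT. Over all genes 3.33% were called higher and 3.19% lower. A gene near background at 17 °C could hardly be called lower in either allele, so nothing is read from the direction of the calls. Mal-A1 and some other genes passed the filter only through tumour arrays, which also bears on the shares. In ts1 brains at 29 °C against 17 °C, 5 of the 107 (4.67%) were called higher and 0 lower, against 1.74% higher and 0.52% lower over all genes. The median difference over the 107 genes was -0.02 in E2 and -0.01 in ts1, and over all genes -0.13 and -0.01, but only 65 and 53 of the 107 had a mean over 4 at either temperature in E2 and in ts1, so nothing is read from these medians. With the sites pooled, a fit that sets ts1 arrays of both sites at 29 °C against those of 1 site at 17 °C, the 5 ts1 calls became 0. CG30380, zpg, yellow-h and Lcp9 were called higher in both alleles.

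Of CG30380, CG10621 and CG9427, which were even in T1 and lower at each later round, all 3 were called higher in E2 and CG30380 also in ts1. CG30380 had 7.11, 7.22 and 6.93 in ts1 brains at 29 °C at EMBL, against 2.47, 2.58 and 2.64 in ts1 brains at 17 °C. Its difference was 4.52 ± 0.73 (SE), limma adjusted p = 0.000295. In E2 brains it had 4.89, 9.42 and 9.37 at 29 °C, against 3.62, 2.66 and 3.78 at 17 °C, a difference of 4.55 ± 0.73 (SE) with a limma adjusted p of 0.000161. At neither site did the 2 temperatures overlap, and E2 29 °C replicate 1, an array that stands apart, was the lowest at 29 °C.

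zpg had 6.25, 7.48 and 8.47 in ts1 brains at 29 °C at EMBL, against 2.12 to 2.15 at 17 °C. The difference of 5.26 ± 0.73 (SE) had a limma adjusted p of 4.49e-05. In E2 brains zpg had 3.85, 6.87 and 6.99 at 29 °C, against 2.12 to 2.22 at 17 °C, a difference of 3.74 ± 0.73 (limma adjusted p = 0.00159). yellow-h, of the yellow family of secreted proteins, had 9.82, 10.32 and 10.97 in ts1 brains at 29 °C at EMBL, against 4.13 to 4.68 at 17 °C, a difference of 5.89 ± 0.49 (SE) and the largest of the set in that comparison. The E2 brains had 8.48, 8.15 and 9.24 at 29 °C, against 4.05 to 4.87 at 17 °C. Lcp9, a larval cuticle protein gene, rose by 2.67 ± 0.52 in ts1 and by 3.08 ± 0.52 in E2 (SE). Its ts1 brains at 29 °C were uneven, with 4.35, 7.55 and 3.84.

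CG10621 rose in E2 and was not called in ts1. It had 6.95, 9.91 and 9.94 in E2 brains at 29 °C, against 2.57, 2.04 and 3.51 at 17 °C, a difference of 6.23 ± 0.76 (SE), limma adjusted p = 5.13e-06. The ts1 brains at EMBL had 3.78, 2.50 and 3.18 at 29 °C, against 2.31, 2.42 and 2.51 at 17 °C. The temperature effect of ts1 minus that of E2 was itself tested, and 0.375% of all genes were called in it. For CG10621 it was -5.48 ± 1.08 (SE) with a limma adjusted p of 0.0145, and for CG30427 -2.06 ± 0.36 (SE) with 0.00511. These 2 were the calls among the 107 genes, and their number was 4 without E2 29 °C replicate 1 and 1 without E2 29 °C replicate 3 or ts1 29 °C replicate 2. The ts1 brains of that contrast were all at EMBL and the E2 brains all at IRB, so allele and site cannot be told apart in it.

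Fa2h, tHMG1, ocn and Nep2 were further genes called higher in E2 at 29 °C. Fa2h had 6.59, 5.98 and 5.66 in E2 brains at 29 °C, against 2.22 to 2.51 at 17 °C, a difference of 3.71 ± 0.50 (SE). ocn had 5.20, 6.67 and 5.59, against 2.19 to 2.24, a difference of 3.61 ± 0.54 (SE). tHMG1 had 2.48, 5.34 and 5.42, against 2.20 to 2.25, so replicate 1 was close to the 17 °C level. Nep2, a neprilysin-type peptidase gene, rose by 2.34 ± 0.61 (SE). Without E2 29 °C replicate 1 the count of calls in this comparison was 16 in place of 13.

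Set against WT, the larval brains at 29 °C gave calls mostly upward at every site and allele but 1. For the 63 tested genes absent from WT a lower call was hardly possible, so nothing is read from the direction of their calls. In ts1/E2 brains 13 of the 107 genes were called higher and 1 lower, against 3.34% and 2.53% of all genes. In E2 brains at 29 °C 12 were higher and 1 lower, against 3.98% and 5.08%. In ts1 brains at 29 °C at EMBL 11 were higher and 0 lower, against 3.69% and 3.07%. In ts1 brains at 29 °C at IRB, the site that also held the tumours of this allele, 0 were higher and 2 lower, against 3.11% and 5.68%. A total of 18 of the 107 genes were called higher in at least 1 of these 4 comparisons, against 7.54% of all genes tested, and 14 in at least 2, against 3.67%. Of the 18, 14 were absent from WT, and the WT level had placed them there. Of the 44 brain genes, 4 were called higher in at least 1 comparison, to be set beside the 7.54% of all genes, and 2 were called lower in at least 1. The share of all genes called lower in at least 1 was not counted, so nothing is read from these numbers. The 3 comparisons at IRB share the same 3 WT arrays. Single arrays moved some of these counts: at EMBL the total of 11 was 6 without ts1 29 °C replicate 2, 5 without replicate 3, and 7, 6 and 4 without WT replicates 4, 5 and 6. In ts1/E2 brains the total of 14 was 9 without replicate 3, and in ts1 brains at IRB the total of 2 was 4 without replicate 6 and 0 without WT replicate 1. With a site term in the fit, or with the sites pooled, the EMBL count was 5.

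The largest differences from WT were those of CG30380 and CG10621 in ts1/E2 brains. CG30380 had 9.99, 9.09 and 8.86 there, against 2.24 to 2.67 in WT at IRB, a difference of 6.85 ± 0.73 (SE) with a limma adjusted p of 2.41e-07. CG10621 had 10.12, 10.08 and 10.07, against 2.30 to 3.81, a difference of 6.80 ± 0.76 (SE) with a limma adjusted p of 6e-07. In these transheterozygous brains both genes thus had about the level of the first-round tumours. zpg rose by 5.51 ± 0.73 in ts1/E2 brains, by 3.76 ± 0.73 in E2 brains at 29 °C and by 5.26 ± 0.73 in ts1 brains at EMBL (SE). CG9427 rose by 4.85 ± 0.92, 3.64 ± 0.92 and 3.31 ± 0.92 (SE) in the same order, although E2 29 °C replicate 1 held 2.55, the WT level.

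The ts1 brains differed between sites in these genes. At IRB, CG30380 had 2.82, 3.51 and 4.10 at 29 °C, zpg 3.65, 3.88 and 2.28, and yellow-h 4.32, 3.59 and 4.60, none of them called against WT. The same allele and temperature at EMBL gave 6.93 to 7.22, 6.25 to 8.47 and 9.82 to 10.97. The tumours derived from ts1 and measured at IRB had 9.60 to 9.77, 5.76 to 8.72 and 7.92 to 8.89 for these genes at T1. The difference between the sites was not tested, and the culture or stage of the brains at each site is not given in the sources used here.

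Cyp4e2 and CG34166 were the genes called lower. Cyp4e2 had 2.45 to 2.47 in ts1 brains at 29 °C at IRB, against 7.01, 4.58 and 4.84 in WT at IRB, a difference of -3.02 ± 0.81 (SE), limma adjusted p = 0.0179. It was also lower in E2 and in ts1/E2 brains, by -2.83 ± 0.81 and -3.01 ± 0.81. Without WT replicate 1, the highest WT array, the ts1 difference was -2.26 ± 0.86 (SE) and no longer called (limma adjusted p = 0.153), and the E2 and ts1/E2 calls were lost too. CG34166 had 3.95, 6.17 and 7.49 in ts1 brains at IRB, against 11.68, 10.54 and 10.21 in WT, a difference of -4.94 ± 1.25 (SE), limma adjusted p = 0.012, and without WT replicate 1 the difference of -4.51 ± 1.41 (SE) was not called (limma adjusted p = 0.07). In ts1 brains at 29 °C at EMBL CG34166 was uneven, at 11.79, 5.93 and 10.82, and not called. In T1 it had 10.56 to 11.46.

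At 17 °C no gene of the set was called against WT in either allele by limma. Of the 107 tested, 5 in ts1 and 8 in E2 had an unadjusted limma p under 0.05. The share of all genes at that limit was not counted, so nothing is read from these numbers. Without WT replicate 4, 1 gene was called in ts1, and 1 was called in E2 without WT replicate 3 or without E2 17 °C replicate 2 or 3. Over all genes 1.19% were called in ts1 at 17 °C and 4.27% in E2 at 17 °C. eya and ey were not called in any of the 9 larval comparisons. eya had 8.84 to 11.71 on the mutant arrays at 29 °C, 8.81 to 9.33 at 17 °C and 9.04 to 9.52 in WT.

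**Figure D5:**
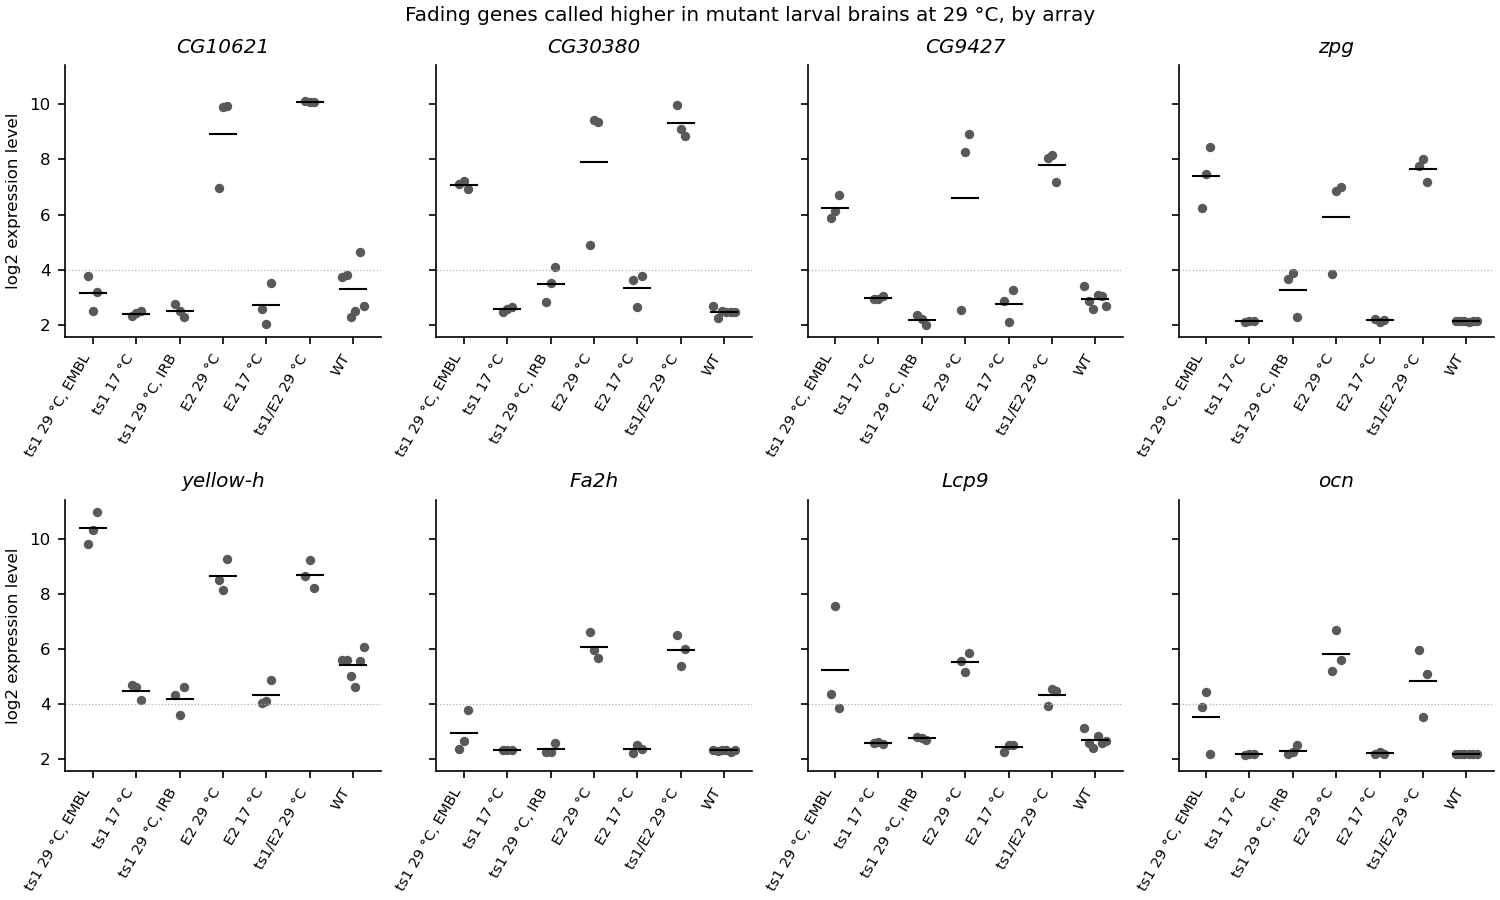
Log2 expression level by array for 8 fading genes in larval brains, with the mean of each group as a bar, ts1 brains at 29 °C divided by site, and log2 4 as a dotted line. In E2 brains CG10621, CG30380, zpg, Fa2h, Lcp9, ocn and yellow-h do not overlap between 29 °C and 17 °C, whereas CG9427 does. The ts1 brains at 29 °C are high for CG30380, CG9427, zpg and yellow-h at EMBL and low at IRB.

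The genes called higher than WT in larval brains at 29 °C were set beside those lower again at T10. Of the 107 tested genes, 17 had a T10 mean at least 1 below the T5 mean, 12 of them absent from WT, and 8 of the 17 were among the 18 called higher than WT in at least 1 comparison. Those 8 were CG30380, CG10621, CG9427, Fa2h, zpg, tHMG1, CG5646 and Lcp9. Over all genes tested, 301 had a T10 mean at least 1 below the T5 mean, and 61 of them (20.3%) were called higher than WT in at least 1 comparison. No test of this overlap was made. Of the 18 genes, 8 met the tumour rule whichever tumour array was left out.

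Position and other probe sets gave further measurements of the set. By the RefSeq table of Release 6 plus ISO1 MT, 19 of the 112 genes lie on the X chromosome, 24 on 2L, 32 on 2R, 14 on 3L, 20 on 3R and 3 on chromosome 4. As shares of the set and of all genes measured, these were 17.0% and 15.6% for X, 21.4% and 18.4% for 2L, 28.6% and 20.3% for 2R, 12.5% and 19.6% for 3L, 17.9% and 24.8% for 3R, and 2.68% and 0.543% for chromosome 4. No test of these shares was made. The 3 genes on chromosome 4 were ey, yellow-h and apolpp. There were 5 pairs of genes with no other measured protein-coding gene between them. They were Yp1 with Yp2, LManV with LManVI, Tsp29Fa with Tsp29Fb, CG16713 with IM33 and CG9568 with CG13102. Noncoding genes and genes not measured here were left out of this count and may lie between them. Paralogs in such pairs can share probe signal, which was not tested. For 7 of the genes the array held 10 other probe sets. Of these 10, 4 had a T1 mean over 4, and all 4 were lower by at least 1 in both later rounds: 2 of CG44014 and 1 each of CG4716 and Idgf3. The others were near background already in T1. They had T1 means of 2.11 and 2.27 for Mlp60A, 2.14 and 2.69 for CG30427, 2.93 for CG9380 and 3.49 for Sod3.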

How the data were processed

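Labelled RNA of each brain or tumour sample went onto 1 Affymetrix Drosophila array, 33 in all. Per the submitters' processing notes, the deposited log2 values were made by the authors with GCRMA, whose version and settings are not given in the sources used here. Per the deposited values, the WT means of the sites IRB and EMBL differ by at most 6.7e-09, so sites had been centred on WT. The SD of WT over both sites therefore holds no spread between sites. In a fit with the sites pooled this can make p against WT too low. The main tests against WT each lay within 1 site.

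Of 18952 probe sets, 13647 named 1 gene, 402 several and 4903 none; 13544 of the first matched RefSeq (Release 6 plus ISO1 MT) by gene ID. The probe set with the highest mean stood for each of 11982 genes. A gene was tested if 3 or more arrays exceeded log2 4, which left 8264. limma 3.58.1 under R 4.3.3 fitted 11 group and site means at once, with Benjamini-Hochberg adjustment. On simulated data the test was checked for recovery and sign.

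The genes, the 22 marker lists and the tests were chosen with earlier results of these data known. Named are, in each class, the 20 genes with the largest smaller drop, 3 genes on each side of the limit, up to 5 calls each way per comparison, genes on lists, and l(3)mbt; other names were chosen after their values were seen. The number of arrays, 3 or 6 per group, limits the precision. The labels do not say whether samples are separate pools of animals, so each p reflects only how these samples vary. Replicate numbers were not taken to pair the samples, since 0 of 22 pairs of groups had every correlation over 0.1. With so few arrays per group this check cannot exclude pairing. Alternatives covered site terms, filters, normalization, probe choice, moderation, the rule's limits and single arrays.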

Additional observations from a re-analysis of the deposited data

Results flagged for a closer look

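The temperature effect differed between alleles for 2 genes of the set, as tested with limma. The ts1 minus E2 difference was -5.48 for CG10621 and -2.06 for CG30427, with E2 at IRB and ts1 at EMBL, so allele and site cannot be told apart.

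For 3 genes every ts1 array at 29 °C moved one way from WT at one site and the opposite way at the other. The EMBL difference from WT exceeded the IRB difference by 2.10 for CG32679, by 4.06 for CG9427 and by 6.20 for yellow-h. The difference between the sites was not tested. For CG32679 the IRB arrays lay within 0.10 of WT at a level near background.

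Among the 5122 probe sets with no single gene named, control probe sets left out, 6 met the rule of the fading genes, with T1 means of 7.16 to 9.18, and 2 of the 6 had a WT mean under 4. Of 24 named genes with a WT mean of 4 or more, none had a WT array that stood apart by Dixon's test, which chance flags in about 1 of 20 groups.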

How the results depend on the processing

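The number of fading genes, 112 in all, was 62 with a drop of 3 asked for, 177 with a T1 mean over 6 and 62 with one over 8. The 68 genes absent from WT became 112 with a T1 mean over 6 and 33 with one over 8. The 44 brain genes became 78 with a drop of 1.5, 16 with a drop of 3 and 29 with a T1 mean over 8. Leaving out single tumour arrays gave 91 to 158 genes, 55 to 90 absent from WT and 36 to 68 brain genes.

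Calls in ts1 brains against WT moved with how the sites were modelled and with single arrays. At IRB the 2 calls became 5 with a site term, 5 with sites pooled and 5 without the 5 arrays that stand apart, and 0 to 4 without single arrays. At EMBL the 11 became 5 with a site term, 5 with sites pooled and 6 with no filter, and 4 to 9 without single arrays. In ts1 at 29 °C against 17 °C the 5 became 3 with a site term and 0 with sites pooled, a fit in which ts1 arrays of both sites stand against those of 1, and 4 to 5 without single arrays. In E2 at 17 °C against WT the 0 became 1 with a site term, with sites pooled, with the mean over probe sets and without the 5 arrays, and 0 to 1 without single arrays, as in ts1 at 17 °C. The difference of temperature effects gave 1 call in place of 2 after quantile normalization, with the mean over probe sets and with trended robust moderation, and 1 to 4 without single arrays. Without single arrays E2 at 29 °C gave 11 to 17 calls against WT and 11 to 16 against 17 °C, and ts1/E2 9 to 12. The cause of these moves was not tested.

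No named call reversed. With the replicate number as a block, the 6 comparisons whose groups share numbers gave 13 calls in E2 at 29 °C against WT, 13 in ts1/E2, 0 in E2 at 17 °C, 4 in ts1 and 14 in E2 at 29 °C against 17 °C, and 2 for the difference. The block was not run where groups share no numbers. Without single arrays, adjusted p passed 0.05 at least once for CG10621 in the difference of temperature effects, CG9427 in E2 and in ts1 at EMBL against WT, Cyp4e2 in all its calls, CG34166, IM33 and Ntf-2r. Values under 4 are near background, so differences from them are not exact.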
